A study of Mus musculus with 12 samples.

Results

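The JAK, STAT and SOCS signalling genes examined here were the Janus kinase genes Jak1, Jak2, and Jak3, the STAT genes Stat3, Stat5a, Stat5b, and Stat6, and the feedback inhibitor genes Socs1, Socs3, and Cish. They were taken by symbol from a table of 36047 genes, and each of the 10 symbols matched 1 row. All 10 were among the 15249 genes tested. Their values were compared over 12 RNA libraries of mouse small intestine (SI) eosinophils, 4 from each of the α4β7+, α4β7− CD22−, and CD22+ subsets, which the study uses as approximate younger, intermediate, and older stages of adaptation to the gut.

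All libraries came from wild type C57BL/6J mice on standard chow, with no treatment in the labels. The sample labels give the mice as female, whereas the study's methods describe mice of both sexes, 6 to 12 wk old. Each library held cells of 2 pooled mice, sorted as live CD45+ CD11b+ SiglecF+ MHCII− Ly6G− cells of the proximal SI lamina propria and then split by the integrin α4β7 and the surface lectin CD22. The subsets are therefore gates on surface proteins, and the age of the sequenced cells was not measured. With the DNA label BrdU, the study timed these proteins on SI eosinophils. It reported α4β7 on younger cells and a gain of CD22 on some cells over time. The authors' values are normalized counts, estimated read counts per gene divided by DESeq2's scaling of the libraries.

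Janus kinases are bound to the inner part of cytokine receptors. When a cytokine draws receptor chains together, the kinases phosphorylate the receptor and the STAT proteins that dock on it, and the STATs then enter the nucleus and switch on genes, among them the SOCS genes and Cish, whose proteins bind receptors or kinases and dampen the signal. In eosinophils, interleukin (IL)-5 and GM-CSF act through the shared β chain, JAK2, and STAT5, whereas IL-4 and IL-13 act mainly through STAT6. STAT5 and STAT3 prefer DNA of the form TTCNNNGAA, in which N is any base.

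This motif, which reads the same on both strands, was searched for in the RefSeq promoter windows of the 10 genes (GRCm38.p6, 250 bases before to 50 bases after a transcript start), because Cish and Socs3 are textbook STAT targets. Of the 12 windows, which covered all 10 genes, those of Cish and Socs3 held the motif and the other windows did not. The Cish window held 2 copies, beginning at the RefSeq start itself, and is shown by the 30 bases around them (chr9:107296654-107296683, plus strand), which GENCODE places in the 5′ untranslated region of a transcript with an earlier start. The Socs3 window held 1 copy at bases 97 to 105 and is shown by its first 160 bases (chr11:117969457-117969616, minus strand), which lie before its RefSeq start at base 117969366. These bases lie inside the Socs3 gene as GENCODE places it, which begins at base 117970047 on this strand. Capitals mark the motif.
Cish: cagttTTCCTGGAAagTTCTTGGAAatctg
Socs3: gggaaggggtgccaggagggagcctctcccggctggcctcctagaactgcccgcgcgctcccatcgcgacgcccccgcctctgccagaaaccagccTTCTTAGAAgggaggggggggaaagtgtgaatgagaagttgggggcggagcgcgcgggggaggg
Among 32851 promoters of this length, 8.3% held the motif at least once and 0.457% held at least 2 copies. These matches describe the letters in the windows only, and binding of a STAT protein was not measured.

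The libraries held an estimated 13858261 to 17321909 reads each, given that 1 read was worth 0.852 to 1.159 normalized counts. These estimates are approximate, since only 30.2% to 63.9% of the low values of a library lay within 0.05 of a whole read. The fewest estimated reads behind any value of the 10 genes were 142, for Socs1. The eosinophil genes Siglecf (6884 to 8594 normalized counts over the 12 libraries) and Ccr3 (10100 to 28670) were high everywhere, whereas the granule protein genes Epx and Prg2 were at most 173 and 407. Summed eosinophil markers were 49330 to 58480 in α4β7+ libraries, 39800 to 45520 in α4β7− CD22− libraries, and 33200 to 35320 in CD22+ libraries, without overlap. Summed markers of T cells were 829 to 1388 in α4β7+ libraries, 537 to 813 in α4β7− CD22− libraries, and 818 to 1245 in CD22+ libraries, and those of B and plasma cells were 2433 to 7310 over all libraries. Macrophage and monocyte markers summed to 1576 to 3024, epithelial markers to 789 to 4986, and mast cell markers to at most 10.2. Paneth cell markers summed to 174 to 389, 71.1 to 324, and 169 to 1248 in the 3 subsets. Markers of stroma and endothelium summed to 10190 to 11640, 12240 to 13560, and 11210 to 11850, highest in the α4β7− CD22− libraries without overlap, and Pecam1 made up 9894, 12130, and 10540 of them on average. The remaining markers of this list had their lowest means in α4β7− CD22− libraries. These were 209, 169, and 326 for Col1a1, 579, 393, and 605 for Col3a1, and 49.3, 35.5, and 72.2 for Cdh5. The part of these cells in the results was not tested. In bulk RNA, fewer cells of a type and less RNA per cell cannot be told apart.

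Of the 10 genes, Cish was the gene that changed by the study's thresholds, which ask for a 1.5-fold difference together with an adjusted p not above 0.05. Relative to α4β7+ eosinophils, it fell in both other subsets. Thus, 1 of 10 genes was called in the first comparison and 1 of 10 in the second, beside 8.05% and 12% of all genes tested, and 0 of 10 were called between CD22+ and α4β7− CD22− eosinophils, beside 0.603%. Counting genes called in at least 1 comparison, the shares were 1 of 10 and 13.4% of all genes. By limma between CD22+ and α4β7− CD22− eosinophils, 1 of the 10 genes, Socs3, had an unadjusted p below 0.05. Single genes were tested with limma only. The median log2 fold change of the 10 genes was 0.00729, -0.0588, and -0.0123 in the 3 comparisons, against 0.00305, 0.0138, and -0.00144 over all genes tested.

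**Figure D1:**
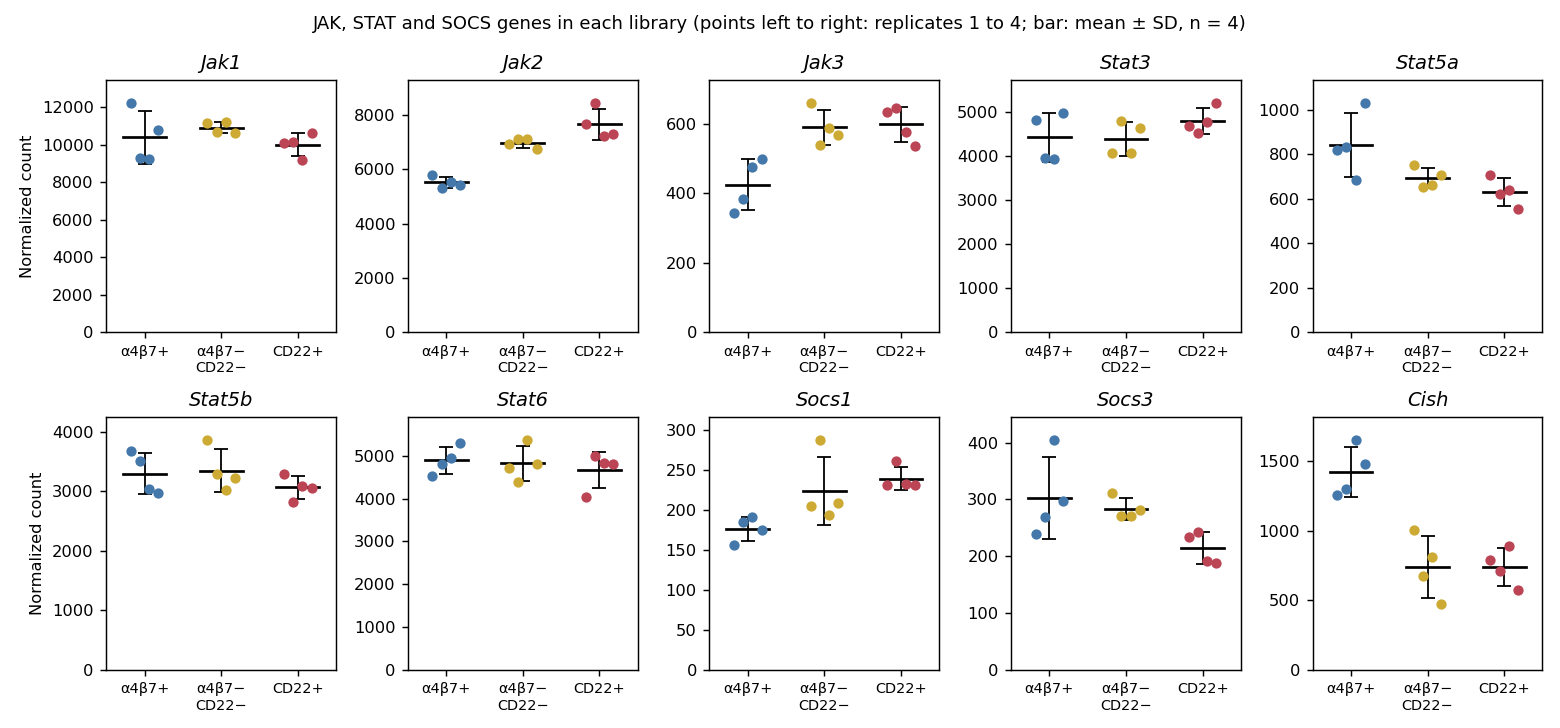
Normalized counts (vertical axes, from 0) of the 10 genes in each of the 12 libraries, by subset. Points are libraries in replicate order from left to right, the horizontal line is the mean and the bar its SD (n = 4). The α4β7+ libraries stand above all others for Cish (1255 to 1650.2) and below all others for Jak2 (5297 to 5797).

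The adjusted p alone picked out smaller differences. With no limit on the fold change, Jak2, Jak3, and Cish passed in α4β7− CD22− against α4β7+ eosinophils (14.9% of all genes passed), and Jak2, Jak3, Stat5a, Socs1, Socs3, and Cish in CD22+ against α4β7+ eosinophils (21.1%). None of the 10 passed between CD22+ and α4β7− CD22− eosinophils (1.08%). The first 2 comparisons share the α4β7+ libraries and are not independent of each other.

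**Figure D2:**
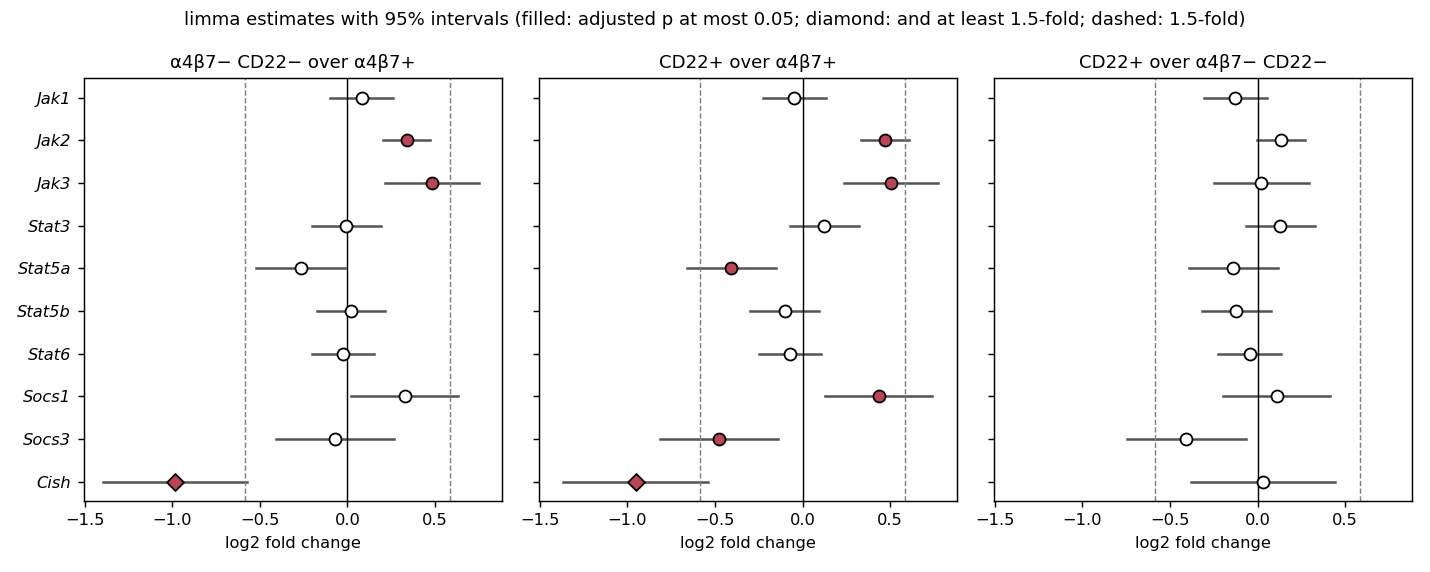
Log2 fold change of each gene (horizontal axes) in the 3 comparisons, with its 95% interval from limma. Filled symbols passed an adjusted p of 0.05, diamonds also the 1.5-fold limit, and dashed lines mark 1.5-fold. Cish is the gene beyond both limits, at -0.98 and -0.95, and Jak2 and Jak3 lie to the right of 0 in the comparisons with α4β7+ eosinophils.

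Among the kinases, Jak2, which serves the receptors for IL-5, IL-3, and GM-CSF, was higher in both other subsets than in α4β7+ eosinophils. Jak2 (ENSMUSG00000024789, chr19:29251828-29313080, plus strand, GRCm38) had normalized counts of 5797, 5297, 5547, and 5428 in the α4β7+ libraries, 6916, 7105, 7128, and 6741 in the α4β7− CD22− libraries, and 7678, 8454, 7211, and 7286 in the CD22+ libraries. None of the 3 subsets overlapped with another. The means were 5517 ± 213, 6972 ± 181, and 7657 ± 569 (SD, n = 4). Compared with α4β7+ eosinophils, the log2 difference was 0.34 (SE 0.06, limma adjusted p = 0.00203) in α4β7− CD22− and 0.47 (SE 0.06, limma adjusted p = 6.94e-05) in CD22+ eosinophils, that is 1.26-fold and 1.39-fold. Both stayed under the 1.5-fold limit, except that quantile normalization gave 0.63 for CD22+ eosinophils. The further step from α4β7− CD22− to CD22+ was 0.13 (95% interval -0.0027 to 0.27, limma adjusted p = 0.532).

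Libraries without overlap were counted as well. In α4β7− CD22− against α4β7+ eosinophils, 4 of 10 genes did not overlap (Jak2, Jak3, and Socs1 higher, Cish lower), as did 18.8% of all genes. The same 4 genes did so in CD22+ against α4β7+ eosinophils, as did 22.9% of all genes. Between CD22+ and α4β7− CD22− eosinophils, 2 genes did not overlap (Jak2 higher, Socs3 lower), as did 6.37% of all genes.

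Jak3, the kinase of receptors that use the common γ chain, was the least abundant of the 3 kinases. Jak3 (ENSMUSG00000031805, chr8:71676296-71690575, plus strand) had 342, 384, 477, and 498 normalized counts in α4β7+ libraries, 661, 539, 589, and 569 in α4β7− CD22− libraries, and 635, 645, 575, and 537 in CD22+ libraries. The α4β7+ libraries were all below the others, and the other two subsets overlapped. The log2 differences from α4β7+ eosinophils were 0.48 (SE 0.13, limma adjusted p = 0.0178) and 0.50 (SE 0.13, limma adjusted p = 0.00965), both under 1.5-fold. The first passed with 9 of 12 libraries left out singly, and its limma adjusted p was 0.0523, 0.0517, and 0.0564 without α4β7+ replicate 1, α4β7+ replicate 2, and α4β7− CD22− replicate 1. Without α4β7+ replicate 4, the second reached 0.59 and the 1.5-fold limit. Between CD22+ and α4β7− CD22− eosinophils the difference was 0.02 (95% interval -0.25 to 0.29). Jak3 overlaps Insl3 on the same strand, and 10.1% of its longest transcript was shared with that gene, whose mean was 11.4 normalized counts. The part of T cell RNA, whose summed markers are given above, in the Jak3 values was not tested.

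Jak1 (ENSMUSG00000028530, chr4:101152367-101265282, minus strand), which pairs with most class II cytokine and common γ chain receptors, was the most abundant of the 10 genes. Its means were 10394 ± 1421, 10920 ± 310 and 10010 ± 604 normalized counts (SD, n = 4), and all 3 subsets overlapped. The log2 differences from α4β7+ eosinophils were 0.08 (95% interval -0.10 to 0.26) and -0.05 (95% interval -0.23 to 0.13), and the sign of the second turned to 0.17 under quantile normalization. As a description, Jak1 made up 63.6% ± 2.7, 59.2% ± 0.54, and 55% ± 2.09 of the length-scaled counts of the 3 kinase genes in α4β7+, α4β7− CD22−, and CD22+ libraries, Jak2 33.2% ± 2.22, 36.9% ± 0.798, and 41% ± 1.84, and Jak3 3.22% ± 0.691, 3.9% ± 0.296, and 4.01% ± 0.305 (SD, n = 4).

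The 4 STAT genes differed little. Stat5a and Stat5b, which carry signals of IL-5 and GM-CSF, lie side by side with Stat3 on chromosome 11. Stat5a (ENSMUSG00000004043, chr11:100859351-100885169, plus strand) had 821, 832, 683, and 1032 normalized counts in α4β7+ libraries, 752, 652, 663, and 706 in α4β7− CD22− libraries, and 708, 621, 639, and 555 in CD22+ libraries. The highest value was α4β7+ replicate 4, and the subsets overlapped. In CD22+ against α4β7+ eosinophils the log2 difference was -0.41 (SE 0.12, limma adjusted p = 0.0243), which is under 1.5-fold, and in α4β7− CD22− against α4β7+ eosinophils it was -0.27 (SE 0.12, limma adjusted p = 0.163). The first had a limma adjusted p of 0.0749, 0.0524, and 0.0726 without α4β7+ replicate 4, CD22+ replicate 2, and CD22+ replicate 4.

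Stat5b (ENSMUSG00000020919, chr11:100780731-100850724, minus strand) was more abundant, with means of 3299 ± 348, 3347 ± 361, and 3066 ± 192 normalized counts (SD, n = 4). Its log2 differences from α4β7+ eosinophils were 0.02 (95% interval -0.18 to 0.22) and -0.10 (95% interval -0.30 to 0.09). Stat5a and Stat5b share much of their sequence, with 59.4% of the longest Stat5a transcript matching Stat5b over 2332 bases at 90.9% identity, so how reads were split between them is uncertain. Their summed counts do not depend on that split and overlapped in all 3 subsets, at 3728 to 4500, 3685 to 4614, and 3447 to 4000.

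Within each library, Stat5a made up 23.02%, 24.14%, 23.12%, and 31.81% of the length-scaled Stat5a and Stat5b counts in α4β7+ eosinophils, 20.71%, 21.02%, 22.73%, and 22.73% in α4β7− CD22− eosinophils, and 22.37%, 22.75%, 21.65%, and 19.62% in CD22+ eosinophils. The α4β7+ libraries were all above the others, 3 of them by a narrow margin. The difference from α4β7+ eosinophils was -3.72 percentage points in α4β7− CD22− and -3.92 in CD22+ eosinophils (exact permutation test, two-sided, p = 0.0286 each, the smallest that 4 against 4 libraries allow, and 0.0429 after adjustment over 3 comparisons). Without α4β7+ replicate 4 the differences were -1.63 and -1.82 percentage points. CD22+ and α4β7− CD22− eosinophils differed by -0.198 points (exact permutation p = 0.914).

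Stat6 (ENSMUSG00000002147, chr10:127642986-127660957, plus strand), the STAT of IL-4 and IL-13, had means of 4896 ± 318, 4818 ± 407, and 4669 ± 428 normalized counts (SD, n = 4). Stat3 (ENSMUSG00000004040, chr11:100885098-100939540, minus strand), used by IL-6 family receptors and others, had means of 4426 ± 554, 4395 ± 381, and 4802 ± 295. Neither gene passed in any comparison, and the libraries of the subsets overlapped for both. The 95% intervals of their log2 differences from α4β7+ eosinophils reached from -0.25 to 0.15 for Stat6 and from -0.20 to 0.32 for Stat3, so differences of 1.5-fold lay outside them. Stat3 and Stat5a overlap by 72 bases at their ends on opposite strands.

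Among the inhibitors, Cish, whose protein docks on IL-5 and IL-2 family receptors and is a classical STAT5 target, had the largest difference of the 10 genes. Cish (ENSMUSG00000032578, chr9:107296026-107302784, plus strand) had 1255, 1301, 1650.2, and 1478 normalized counts in α4β7+ libraries. It had 1001, 674, 812, and 473 in α4β7− CD22− libraries and 786, 706, 889.9, and 573 in CD22+ libraries. Every α4β7+ library was above every other library, and the other two subsets overlapped. The means were 1421 ± 180.4, 739.9 ± 223, and 739 ± 134 (SD, n = 4). Cish thus fell by 0.98 on the log2 scale in α4β7− CD22− eosinophils (SE 0.19, limma adjusted p = 0.00285), or 1.98-fold, and by 0.95 in CD22+ eosinophils (SE 0.19, limma adjusted p = 0.00225), or 1.94-fold. Both calls held in all 9 other settings tried and with each of the 12 libraries left out, where the log2 differences lay between -1.15 and -0.787 and between -1.05 and -0.837. CD22+ and α4β7− CD22− eosinophils differed by 0.03 (95% interval -0.38 to 0.44, limma adjusted p = 0.981). On the opposite strand, the annotation places the pseudogene Gm17040, with a mean of 2.91 normalized counts, and the antisense gene Gm17041, whose level was not analysed here.

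The dissociation response, a list of 20 immediate early and stress genes that tissue digestion can raise, is given beside Cish. Of its 20 genes, 7 were lower and 1 higher in α4β7− CD22− than in α4β7+ eosinophils, and 9 were lower and 1 higher in CD22+ than in α4β7+ eosinophils, with medians of -0.197 and -0.51 on the log2 scale. The called shares were 40% and 50%, beside 8.05% and 12% of all genes tested. Zfp36, which destabilizes mRNA, fell by 1.08 and 1.59, and the transcription factor gene Jun by 0.95 and 1.56, whereas Egr2 rose by 1.36 and 1.73. Between CD22+ and α4β7− CD22− eosinophils, where Cish differed by 0.03, the median of the list was -0.337 and Jun was the 1 gene called lower (-0.62, limma adjusted p = 0.0361). The called share was 5%, beside 0.603% of all genes tested. With the limma adjusted p alone, 6 of the 20 genes passed, beside 1.08% of all genes. The Jun call was lost without α4β7+ replicate 1, α4β7− CD22− replicate 1, 2, or 3, or CD22+ replicate 1, 3, or 4 (0.0529 to 0.132), with no filter (0.0527), without the variance trend (0.158), with only these 2 subsets in the model (0.0916), and under quantile normalization, which put it under 1.5-fold. The part of this response in the Cish result was not tested. The sum of eosinophil markers given above was also lower in every library outside the α4β7+ subset, though not each marker was, with means of 25120, 15190, and 10770 normalized counts for Ccr3, 352, 185, and 109.7 for Prg2, and 7534, 7827, and 7340 for Siglecf in the 3 subsets, and their part in the Cish result was not tested.

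Socs1 (ENSMUSG00000038037, chr16:10782240-10785536, minus strand) encodes a direct inhibitor of the kinases, and its estimates against α4β7+ eosinophils had the opposite sign to those of Cish. It had 156, 184, 190.2, and 175 normalized counts in α4β7+ libraries, 205, 287, 194, and 208 in α4β7− CD22− libraries, and 231, 260.1, 232, and 231 in CD22+ libraries. The α4β7+ libraries were all below the others, the nearest pair being 190.2 and 194. The log2 difference from α4β7+ eosinophils was 0.33 (SE 0.14, limma adjusted p = 0.152) in α4β7− CD22− and 0.43 (SE 0.14, limma adjusted p = 0.0417) in CD22+ eosinophils, under 1.5-fold. The second passed in 3 of 12 fits with 1 library left out, those without α4β7− CD22− replicate 1, 2, or 3, and reached a limma adjusted p of 0.109 without CD22+ replicate 2.

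Socs3 (ENSMUSG00000053113, chr11:117966079-117970047, minus strand), the inhibitor of gp130 and G-CSF receptors and a classical STAT3 target, was lowest in CD22+ eosinophils. It had 239, 269.8, 405, and 298 normalized counts in α4β7+ libraries, 311, 270.2, 271, and 282 in α4β7− CD22− libraries, and 234, 243, 192, and 188 in CD22+ libraries. The CD22+ libraries were all below the α4β7− CD22− libraries but overlapped with 1 α4β7+ library. The log2 difference of CD22+ from α4β7+ eosinophils was -0.48 (SE 0.16, limma adjusted p = 0.0441), under 1.5-fold, and it passed in 3 of 12 fits with 1 library left out, those without α4β7+ replicate 1, α4β7+ replicate 2, or CD22+ replicate 2, with an adjusted p of 0.133 without α4β7+ replicate 3 and of 0.0708 in a fit blocked on replicate number. The difference of CD22+ from α4β7− CD22− eosinophils was -0.41 (95% interval -0.75 to -0.07, limma adjusted p = 0.358).

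Cish and Socs3 were set against each other within each library, which is free of the scaling of libraries. The log2 ratio of Socs3 to Cish averaged -2.25 ± 0.156 over the α4β7+ libraries, -1.33 ± 0.42 over the α4β7− CD22− libraries, and -1.77 ± 0.303 over the CD22+ libraries (SD, n = 4). The difference between α4β7− CD22− and α4β7+ eosinophils was 0.91 (exact permutation test, two-sided, p = 0.0286, adjusted p = 0.0857), without overlap of the libraries. CD22+ and α4β7+ eosinophils differed by 0.47 (exact permutation p = 0.0571, adjusted p = 0.0857) and overlapped. Neither passed an adjusted p of 0.05. As a description, Cish made up 73.7% ± 1.33, 57.1% ± 7.82, and 60.7% ± 4.7 of the length-scaled counts of the 3 inhibitor genes.

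Levels were compared between genes after division by the length of the longest coding transcript. In α4β7+ eosinophils, the order of the mean level per kb was Jak1 (2119), Stat6 (1297), Jak2 (1097), Stat3 (733), Stat5b (633), Cish (499), Stat5a (217), Socs3 (119), Jak3 (106), and Socs1 (60.6). Of these neighbours, Stat3 and Stat5b, Stat5b and Cish, and Socs3 and Jak3 overlapped in their libraries. In α4β7− CD22− and CD22+ eosinophils the order differed in that Jak2 stood before Stat6 and Jak3 before Socs3. Jak2 and Stat6 overlapped in α4β7− CD22− libraries (1386 and 1276 per kb) but not in CD22+ libraries (1522 and 1237 per kb), and with median transcript lengths Stat6 stood before Jak2 in every subset. Cish kept its place in the order, at 259.6 and 259.2 per kb, overlapping with Stat5a in α4β7− CD22− libraries.

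**Figure D3:**
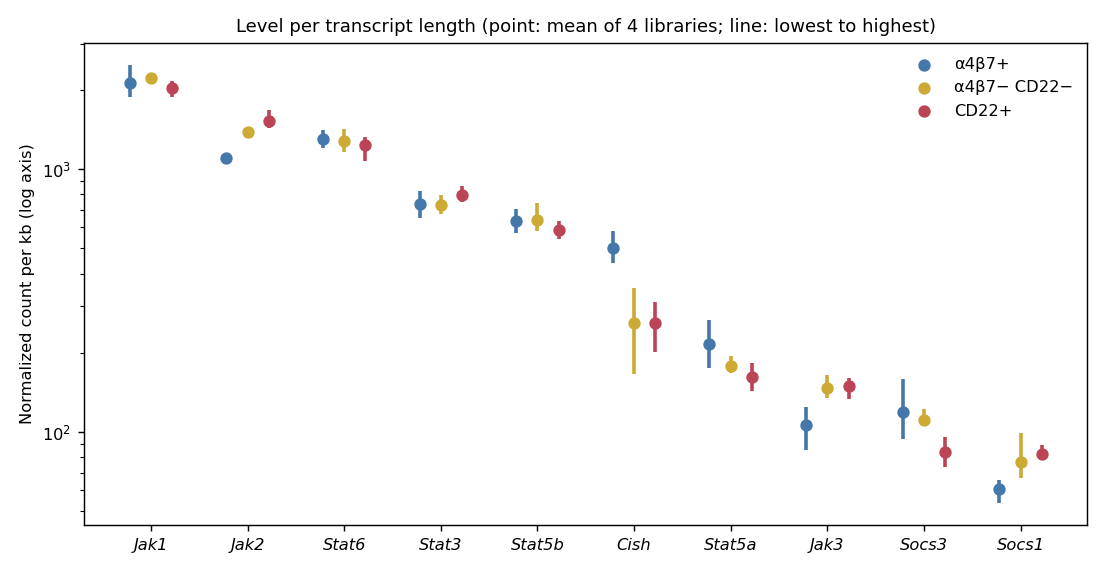
Normalized count per kb of the longest coding transcript (vertical log axis) of the 10 genes in the 3 subsets. Points are means of 4 libraries and lines reach from the lowest to the highest library. Jak1 leads in every subset, and the Cish point drops from 499 in α4β7+ to 259.6 and 259.2 per kb in the other subsets.

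The intermediate subset was also set against the mean of both ends, which asks whether a gene lies off the line between α4β7+ and CD22+ eosinophils. None of the 10 genes was called, beside 0.63% of all genes, or passed an adjusted p of 0.05 by limma, beside 1.23%, and 1 gene, Cish, had an unadjusted p below 0.05. Cish in α4β7− CD22− eosinophils lay 0.51 below the mean of both ends on the log2 scale (estimate -0.51, 95% interval -0.87 to -0.15, limma adjusted p = 0.184). Jak3 lay 0.23 above it (95% interval -0.0029 to 0.46, limma adjusted p = 0.404).

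Other genes of the pathway were described by lists of its remaining kinases, STATs and SOCS genes, other regulators, cytokine receptor chains, and target genes. Of 89 such genes, 83 were tested. In α4β7− CD22− against α4β7+ eosinophils 5 were higher and 7 lower, in CD22+ against α4β7+ eosinophils 6 were higher and 15 lower, and between CD22+ and α4β7− CD22− eosinophils 0 were higher and 1 lower. Of all genes tested, 3.7% were higher and 4.35% lower in the first comparison, 5.6% and 6.39% in the second, and 0.21% and 0.393% in the third. The median log2 fold changes were -0.138, -0.0881, and -0.0465.

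Within the family itself, 1 of the 9 remaining genes was called in each comparison with α4β7+ eosinophils. That share is 11.1%, beside 8.05% and 12% of all genes tested. Stat2, which acts in type I interferon signalling, rose from 985 ± 151 normalized counts in α4β7+ eosinophils (841 to 1182) to 2294 ± 256 in α4β7− CD22− (2031 to 2645) and 2868 ± 184 in CD22+ eosinophils (2618 to 3028). The log2 fold changes were 1.22 (SE 0.11, limma adjusted p = 2.71e-06) and 1.55 (SE 0.11, limma adjusted p = 1e-07), without overlap between α4β7+ and the other libraries. Its change was larger than that of any of the 10 genes and was called in every setting tried. Tyk2, a kinase of the type I interferon receptor, had means of 985 ± 41.8, 990.5 ± 129, and 919.6 ± 57.2 and was not called. No gene was called among 12 PIAS, phosphatase, and adaptor genes in the comparisons with α4β7+ eosinophils, beside the same 8.05% and 12%. There, limma gave 2 and 4 with an unadjusted p below 0.05. With the limma adjusted p alone, 1 passed in each, beside 14.9% and 21.1% of all genes.

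Receptor chains moved in both directions. Of 28 tested, 3 were higher and 3 lower in α4β7− CD22− than in α4β7+ eosinophils, and 2 were higher and 5 lower in CD22+ than in α4β7+ eosinophils, or 21.4% and 25% called beside 8.05% and 12% of all genes tested. Csf3r, the G-CSF receptor, rose from 414 ± 97.1 to 842 ± 144 and 1076 ± 171 normalized counts, with log2 fold changes of 1.03 and 1.39. Il13ra1, an IL-13 receptor chain, rose from 442 ± 36.9 to 759 ± 91 and 748 ± 107. Summed neutrophil markers were 41.3 to 55.3, 97.6 to 150.1, and 132 to 163 normalized counts in the 3 subsets. Of these, Ngp had means of 31.6, 106.4, and 143.4 and Mpo of 12.8, 8.06, and 6.39, with Elane at 0 in every library, and their part in the Csf3r result was not tested.

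As a description, Il5ra, the IL-5 receptor chain, which was chosen after its values were seen, had means of 2864 ± 147, 2272 ± 65.6, and 1793 ± 137 normalized counts in the 3 subsets. Csf2rb2, which encodes a mouse β chain for IL-3, fell from 4668 ± 541 to 2688 ± 213 in CD22+ eosinophils (log2 fold change -0.79, limma adjusted p = 4.91e-05). It shares 85.6% of its longest transcript with other genes, chiefly Csf2rb, the common β chain, whose means were 12305 ± 1316, 14598 ± 1917, and 13453 ± 894, so the split of reads between them is uncertain. Lifr was called lower in α4β7− CD22− eosinophils (log2 fold change -1.27, limma adjusted p = 0.0242), but not without α4β7+ replicate 2 or 3 or α4β7− CD22− replicate 2 or 3 (0.0503 to 0.0736), or without the variance trend (0.0556).

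Target genes of the STATs moved in both directions. Of 14 STAT5 target genes, which include 3 of the 10 genes above, 3 were higher and 5 lower in CD22+ than in α4β7+ eosinophils, and 1 was higher and 3 lower in α4β7− CD22− than in α4β7+ eosinophils, beside 12% and 8.05% of all genes tested that were called in either direction. Myc, the growth regulator, fell from 649 ± 126 to 42.6 ± 9.77 and 42.3 ± 20.2 normalized counts (log2 fold changes of -3.90 and -3.99), and the cytokine gene Osm from 507 ± 80.9 to 90.5 ± 16.2 and 49.4 ± 3.26 (-2.48 and -3.32). Ccnd2, which encodes cyclin D2, rose from 1847 ± 187 to 3440 ± 180.1 and 3586 ± 849. Osm was also the gene called lower between CD22+ and α4β7− CD22− eosinophils (-0.84, limma adjusted p = 0.0285), a call lost without α4β7− CD22− replicate 1, 2, or 3 or any 1 CD22+ replicate (0.0564 to 0.106) and with only these 2 subsets in the model (0.117).

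Of 10 STAT3 target genes, 1 was higher and 5 lower in CD22+ than in α4β7+ eosinophils, among them Bcl3 (-1.07) and Cebpb (-0.80), which encode transcription regulators, and the kinase gene Pim1 (-0.71). The Pim1 fall was 0.50 under quantile normalization and then under 1.5-fold. Myc and Pim1 stand on both lists. Of 16 STAT6 target genes, 11 were tested, and 2 were lower in CD22+ than in α4β7+ eosinophils, Cish and the demethylase gene Kdm6b (-0.70, and -0.37 under quantile normalization). The STAT3 and STAT6 lists thus had called shares of 60% and 18.2%, beside 12% of all genes tested. These lists include 1 and 2 of the 10 genes above. All lists were chosen with earlier results of these data known, so their shares are a description only. In α4β7− CD22− against α4β7+ eosinophils, 2 STAT3 target genes and 1 STAT6 target gene were lower and 0 higher (20% and 9.09%, beside 8.05%). In CD22+ against α4β7+ eosinophils, 9 of the 20 dissociation genes were lower, as given above, and their part in these counts was not tested.

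**Figure D4:**
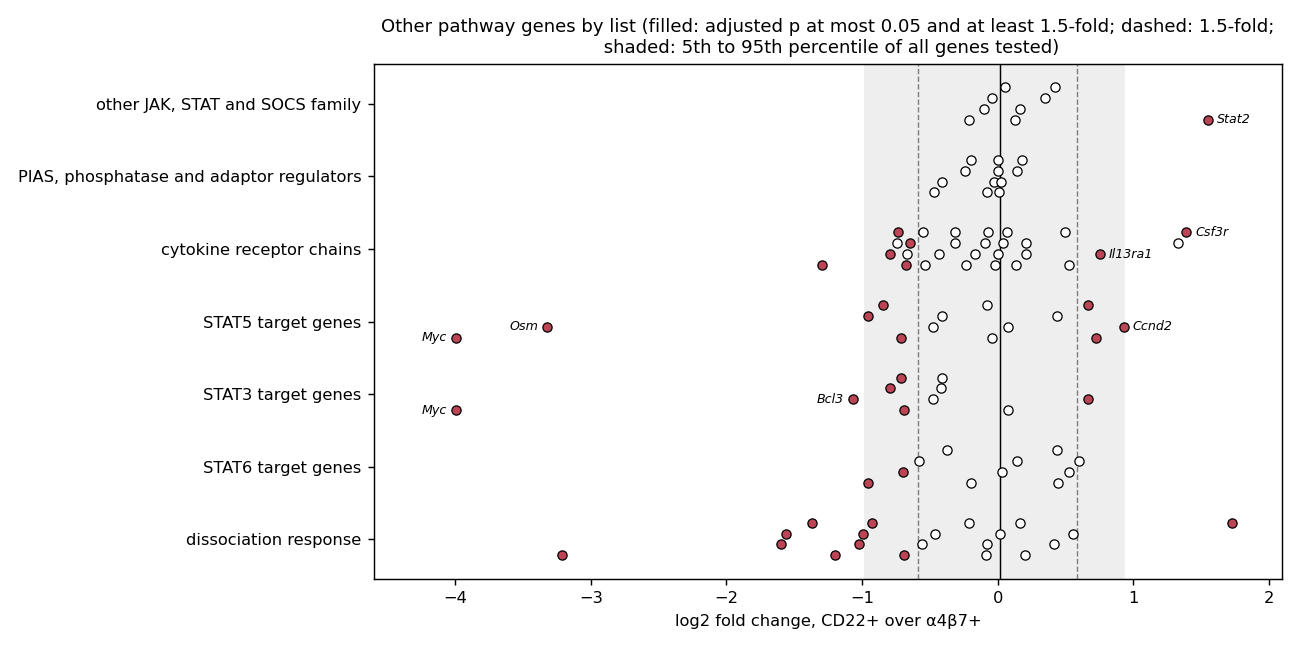
Log2 fold change between CD22+ and α4β7+ eosinophils (horizontal axis) of the genes tested in each list shown (rows), with Stat2, Myc, Osm and others labelled. Filled points passed both thresholds, dashed lines mark 1.5-fold, the vertical line is the median of all genes tested and the shaded band holds the central part of them. Stat2 stands furthest to the right among pathway genes at 1.55 and Myc furthest to the left at -3.99.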

How the data were processed

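Eosinophil RNA from 12 libraries was analysed. The authors trimmed reads with Trimmomatic 0.39, pseudoaligned them to mm10 with kallisto 0.46.1, and normalized with DESeq2 1.38.2, from stranded libraries made from 3 ng of total RNA. The deposited values, a signal per gene, are DESeq2's normalized counts and are not whole, so whole reads were not recovered and count tests were not run. The strand setting of the quantification was not given in the sources used here. Every column was matched to a library (0 were not), and no 2 columns were identical.

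limma 3.58.1 (R 4.3.3) was run on genes whose average exceeded 10, after adding 1 and taking log2, with all 12 libraries and a variance trend, and p was Benjamini-Hochberg adjusted over 15249 genes. Fold changes of low genes are understated on this scale. The steps were tested on simulated data. Shares and ratios were compared by exact permutation tests. Locations and lengths came from GENCODE (GRCm38), promoters from RefSeq (GRCm38.p6, 10 of 10 genes matched), and shared sequence from BLAST 2.17.0 at 90% identity or more. A floor of 3 reads was 2.56 to 3.48 normalized counts and covers counting error only.

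The 10 genes and all lists were chosen with earlier results of these data known. Besides the 10 genes, the genes named are at most 4 called genes per list with the largest change and a mean of at least 100, and the 3 genes nearest to each called gene. Tyk2, Csf2rb, and Il5ra were added after their values were seen. Some genes and 1 list are not reported here. The study describes the libraries as biological replicates, each of 2 pooled mice, and whether the 3 subsets were sorted from the same mice was not given in the sources used here. By a limit of 0.1 on the correlation of every same-numbered pair, replicate numbers paired α4β7− CD22− with CD22+ libraries (0.135 to 0.203). Pairs with α4β7+ libraries did not all reach the limit, at 0.043 to 0.137 for α4β7− CD22− and -0.0586 to 0.182 for CD22+ libraries. Such a limit cannot exclude a weaker pairing of the α4β7+ libraries. The pairing was taken from the data and not from the labels. Alternatives were pseudocounts of 0.1 and 10, no filter or one at 50, quantile normalization, rescaling by the 75th percentile, no trend, adjusted p alone, only the subsets compared, a replicate block, median transcript lengths, and each library left out.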

Additional observations from a re-analysis of the deposited data

Results flagged for a closer look

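Of 36 groups of 4 libraries examined for the 10 genes and the 2 within-library measures, 3 held a library that stood apart from the other 3 (Dixon's test), and chance gives about 1 in 20 groups. Socs1 was 286.9 normalized counts in α4β7− CD22− replicate 2, against 193.7 to 208.3 in the other libraries of the subset. Socs1 was 260.1 in CD22+ replicate 2, against 230.6 to 231.5. The share of Stat5a in the Stat5a and Stat5b counts was 31.81% in α4β7+ replicate 4, against 23.02% to 24.14%, and the differences without that library are given above.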

How the results depend on the processing

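The calls of Cish held under every setting and with each library left out. The causes of the following changes were not tested. With the adjusted p alone, 3, 6, and 0 of the 10 genes were called in the 3 comparisons, and 26, 29, and 5 other pathway genes in place of 12, 21, and 1. Quantile normalization called 2 of the 10 genes in CD22+ against α4β7+ eosinophils, as did the fit without α4β7+ replicate 4 (1 to 2 genes over the libraries left out). The 1 other pathway gene called between CD22+ and α4β7− CD22− eosinophils was Osm, and the count was 0 to 1 with a library left out and 0 with only the subsets compared.

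Small estimates that were not called changed sign. Under quantile normalization, Jak1 in CD22+ against α4β7+ eosinophils was 0.172, Stat3 in α4β7− CD22− against α4β7+ eosinophils was 0.0341 (0.0143 after rescaling by the 75th percentile), and Stat6 was 0.0258, 0.0566, and 0.0309 in the 3 comparisons and -0.00256 for the intermediate subset. With a library left out, α4β7− CD22− against α4β7+ eosinophils gave -0.0596 to 0.0535 for Stat3, -0.0503 to 0.0751 for Stat5b, -0.0778 to 0.019 for Stat6, and -0.174 to 0.0783 for Socs3. CD22+ against α4β7+ eosinophils gave -0.1 to 0.0355 for Jak1. CD22+ against α4β7− CD22− eosinophils gave -0.0196 to 0.0778 for Jak3, -0.0901 to 0.0215 for Stat6, and -0.165 to 0.194 for Cish. The intermediate subset gave -0.0422 to 0.0546 for Stat6 and -0.0169 to 0.171 for Socs1. Of 830 values of the 10 genes under alternatives, 798 kept direction and call, 30 changed sign and 2 gained a call.

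The adjusted p of Stat5a, Socs1, and Socs3 in CD22+ against α4β7+ eosinophils ranged from 0.0186 to 0.0502, 0.028 to 0.07, and 0.0337 to 0.0861 over 9 other settings.

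The Stat5a share differed by -4.56 to -1.63, -4.76 to -1.82, and -0.582 to 0.462 percentage points with a library left out. These tests had an adjusted p of 0.0857 in the comparisons with α4β7+ eosinophils, and 3 against 4 libraries cannot pass. With median transcript lengths, 8 of 10 places in the order of levels held in α4β7− CD22− and CD22+ eosinophils.

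Of 24 matches of a library to another subset, 18 were best with its own replicate number, a hint of pairing from the data that the labels do not give. With the replicate block, the 10 genes gave 1, 1, and 0 calls and other pathway genes 12, 20, and 1, and the share differences of -3.72 and -3.92 had an adjusted p of 0.188, where 4 pairs cannot pass. The block took the adjusted p of Socs3 in CD22+ against α4β7+ eosinophils to 0.0708, and it changed no call of the 10 genes by both thresholds. Depth limits Socs1 most, at 142 estimated reads.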

Other observations

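The genes whose centred log2 values over the 12 libraries lay nearest to those of Cish were sought among 9465 genes with a mean of at least 100 normalized counts. They were Erdr1, Mid1, and Vav3, at root mean square log2 differences of 0.2, 0.22, and 0.227, where Cish itself lay 0.536 from its own mean. Because they were picked for following Cish over the same 12 libraries, their falls below are fixed by that choice. They are given as a description. Vav3, which encodes a guanine nucleotide exchange factor, fell from 1055 ± 140.1 normalized counts in α4β7+ eosinophils to 607 ± 128 and 549 ± 80.8 in the α4β7− CD22− and CD22+ subsets (SD, n = 4). Erdr1 fell from 1446 ± 210.2 to 772 ± 147 and 792 ± 199.7, and GENCODE gives its identifier another symbol. Mid1, which encodes a microtubule-associated ubiquitin ligase, fell from 303 ± 52.1 to 155.5 ± 58.1 and 143 ± 46.5, and 33.7% of its longest transcript matched other genes at 90% identity or more. Its call in α4β7− CD22− eosinophils was lost without α4β7− CD22− replicate 2 or 4 (limma adjusted p of 0.0562 and 0.0552) or α4β7+ replicate 2 (0.05 after rounding).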
